A study of Mus musculus with 12 samples.

Results

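The mitosis genes described here are a list of 38 genes whose products carry a cell from entry into mitosis to the separation of its daughters. They were chosen by name, and where several probe sets measured a gene, the one of highest mean log2 intensity over all arrays stood for it. Of the 38 listed genes, 37 had a named probe set and all 37 passed the filter on dim genes, out of 12797 genes tested; Ccnb1 was not analysed here. The study measured RNA from 12 mouse samples, 1 array each, in a leukaemia and lymphoma model driven by ZMYM2-FGFR1, a fusion of the zinc finger protein ZMYM2 to the receptor tyrosine kinase FGFR1.

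The samples fell into 5 groups. The T lymphoma group held 4 arrays from ZMYM2-FGFR1 mice, taken at the third serial transplant; replicates 1 to 3 were unsorted tumours in which over 90% of cells were positive for GFP, Thy1, CD4 and CD8, and replicate 4 was sorted for these markers. The matching normal cells were 3 samples of sorted Thy1-positive CD4+CD8+ (double-positive, DP) thymocytes of Balb/c mice, each pooled from 3 thymuses. The ZNF112 cell line was measured once, unsorted, and the labels say no more about its origin. Leukaemia stem cells (LSC, GFP+ Lin-Sca-1+c-kit+) came from bone marrow or spleen of 2 to 3 leukaemic ZMYM2-FGFR1 mice per sample, with 2 arrays. One label of these samples calls them normal, while their disease state and source are given as ZMYM2-FGFR1. Haematopoietic stem cells (HSC, Lin-Sca-1+c-kit+) were sorted from the bone marrow of 5 normal female Balb/c mice each, again with 2 arrays. The gates of the diseased cells include GFP and those of the normal cells do not. Ages were not given, and the labels call all replicates biological.

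Mitosis begins when CDK1, bound to A-type and B-type cyclins, is activated, and PLK1 and the Aurora kinases then build the spindle. The spindle checkpoint delays the anaphase-promoting complex (APC/C) until kinetochores are attached, after which CDC20 and UBE2C direct the destruction of cyclin B and securin, and separase opens the cohesin rings. Transcription of many of these genes peaks together in G2 and M phase and is low in resting cells. Normal DP thymocytes are a mixture of a cycling minority and a resting majority, and haematopoietic stem cells of the marrow divide rarely, while the broader Lin-Sca-1+c-kit+ gate also holds cycling progenitors. In bulk samples, fewer cells in cycle and less RNA per cycling cell cannot be told apart.

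The promoters of such genes often hold a cell cycle homology region (CHR), which the MuvB complexes bind, downstream of CCAAT boxes, which NF-Y binds. RefSeq promoter windows (GRCm38.p6, from 250 bases before to 50 after the start) were matched for 32 of the 38 listed genes by symbol, as 35 windows. The CHR was searched as TTTGAA or TTCGAA and the CCAAT box as CCAAT, on both strands; the motifs share no letters at a site unless they overlap by chance. A CHR stood in 24 of 32 listed genes (75%), against 21.7% of 27025 genes with such a window. A CCAAT stood in 24 of 32 (75%), against 41.1% of all genes, and both stood in 21 of 32 (65.6%), against 8.61%. A match is a description of the letters and no measure of binding.

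The 4 sequences that follow are the 200 bases before the start of genes that were called lower in LSC, chosen because each holds both motifs there, and belong to Ccnb2 (chr9:70421555-70421754, minus strand), Cdc20 (chr4:118437344-118437543, minus strand), Ube2c (chr2:164769729-164769928, plus strand) and Kif11 (chr19:37376182-37376381, plus strand). They are written 5′ to 3′ on the gene's strand. Capitals mark CCAAT and TTTGAA, or, where the motif lies on the other strand, ATTGG and TTCAAA.
Ccnb2: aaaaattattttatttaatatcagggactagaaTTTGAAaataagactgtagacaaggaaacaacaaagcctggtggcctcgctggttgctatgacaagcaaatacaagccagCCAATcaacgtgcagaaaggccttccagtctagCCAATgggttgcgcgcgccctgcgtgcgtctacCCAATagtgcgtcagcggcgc
Cdc20: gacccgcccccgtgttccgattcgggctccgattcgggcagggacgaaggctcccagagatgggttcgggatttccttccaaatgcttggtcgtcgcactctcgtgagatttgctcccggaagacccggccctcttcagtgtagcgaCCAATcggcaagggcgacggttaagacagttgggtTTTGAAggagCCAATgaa
Ube2c: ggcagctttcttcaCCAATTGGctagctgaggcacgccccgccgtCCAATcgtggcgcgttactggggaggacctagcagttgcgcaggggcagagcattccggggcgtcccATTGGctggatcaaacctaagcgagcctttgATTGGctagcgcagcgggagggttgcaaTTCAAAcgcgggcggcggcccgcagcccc
Kif11: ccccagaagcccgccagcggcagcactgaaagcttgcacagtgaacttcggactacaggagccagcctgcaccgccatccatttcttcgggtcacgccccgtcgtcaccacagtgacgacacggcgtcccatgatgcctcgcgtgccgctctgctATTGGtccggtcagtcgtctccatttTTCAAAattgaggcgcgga
In Ccnb2 the CHR letters lay upstream of all 3 CCAAT copies, and in Kif11 1 CCAAT and 1 CHR lay close to the start. Ube2c held 5 CCAAT matches over both strands, of which those at -186 and -183 overlap in the stretch CCAATTGG. In Cdc20 the CHR lay between a pair of CCAAT copies. In the same 200 bases of other called members, Plk1, Cdca8 and Aurka held CCAAT alone, Kif2c held a CHR alone and Birc5 held neither. In the full windows counted above, Plk1, Cdca8 and Aurka also held a CHR, while Kif2c still held no CCAAT and Birc5 neither motif.

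All values are RMA intensities, deposited on the linear scale and turned back to log2 here. The median intensity was 99.5 to 109 on the 8 arrays of the T cell side (cell line, T lymphoma, DP thymocytes) and 44.3 to 46.1 on the 4 arrays of the stem cell side, which look normalized apart. Differences were therefore tested only within a side, and levels across the sides are given as the percentile of a gene among all probe sets of its array. A difference was called at an adjusted p under 0.05, from limma with Benjamini-Hochberg adjustment over the 12797 genes. The labelled cell types were read against markers. All 9 DP thymocyte markers were above the filter level on every T lymphoma and DP array, and 8 of 9 in the cell line. That level, an intensity of 80.2, lies under the median of each of these arrays. HSC 1 and HSC 2 had 6 and 3 of 9 above it, so passing it says little of cell type. In T lymphoma minus DP thymocytes only 1 of 9 DP markers lay above 0, with a median of -1.07 log2. Cd4 was called lower (log2 difference -2.88 ± 0.40 (SE), adjusted p = 0.0029 in limma), as was Rag1 (-0.76 ± 0.18, adjusted p = 0.0391), beside 3.18% of all genes. Ptcra was called higher (2.27 ± 0.50, adjusted p = 0.0286), beside 3.37%. Kit, the c-kit of the gate, read 12.31 and 10.99 log2 in LSC and 11.005 and 11.431 in HSC. In LSC 1 and LSC 2 the T cell gene Thy1 read 8.67 and 12.51 log2, against 6.64 and 5.54 in HSC 1 and HSC 2. The summed intensity of 8 stem cell markers was 8470 in LSC 1, with 6 of 8 above the filter level, and 3410 in LSC 2, with 3 of 8 above it, against 9000 and 13000 in HSC, with 8 of 8 above it in each. Of these markers 3 of 8 were called lower in LSC, beside 6.21% of all genes. Among them was Hlf, a stem cell transcription factor gene, which read 5.37 and 4.77 in LSC, against 10.66 and 11.10 in HSC. The LSC arrays differed: Cd34 read 10.63 in LSC 1 and 5.10 in LSC 2, against 10.48 and 11.50 in HSC, and Meis1 read 8.19 in LSC 1 and 4.93 in LSC 2, against 10.36 and 10.99 in HSC.

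The place of the mitosis genes within each array gave the first comparison across all groups. The median member stood at percentile 93.9 in the cell line. It stood at 85.5, 85.9, 89.7 and 83.7 in T lymphoma 1 to 4 and at 78.4, 84.4 and 87.2 in DP thymocytes 1 to 3. It stood at 79.9 and 77.0 in LSC and at 87.3 and 93.1 in HSC. The cell line was thus highest and both LSC arrays were lowest but for DP 1, which lay between them, and the T lymphoma and DP ranges overlapped. HSC 2 came close to the cell line.

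**Figure D1:**
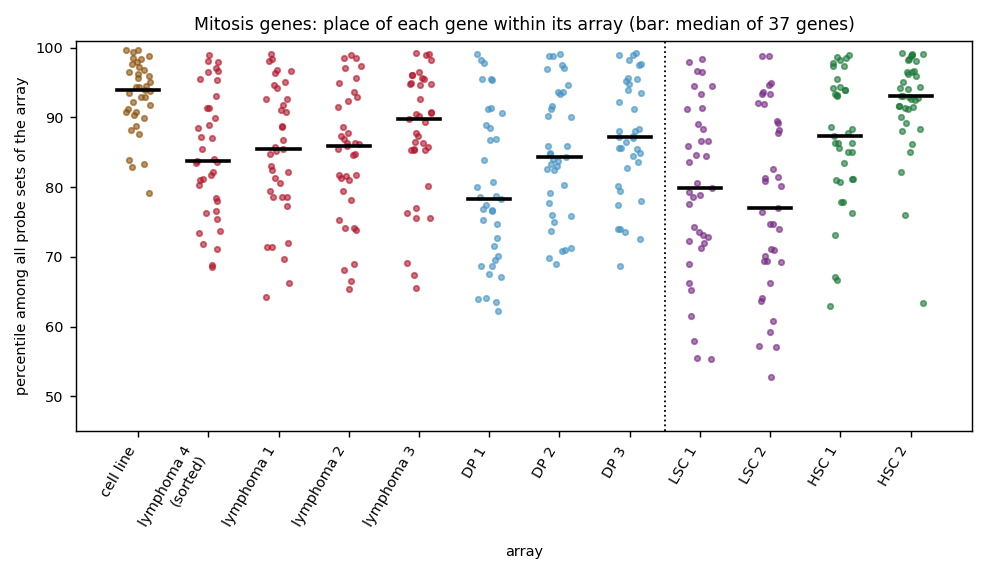
Percentile of each of 37 mitosis genes among all probe sets of its array (vertical axis) in the 12 arrays, with a bar at the median. The medians run between 77.0 in LSC 2 and 93.9 in the cell line, and the dotted line parts the T cell side at left and the stem cell side at right.

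LSC were compared with HSC to see how the leukaemic cells of the stem cell gate differ from normal ones. All 37 mitosis genes had a lower mean in LSC (of all genes, 48.2% lay above 0), and 10 passed the test, all lower, which is 27% of the members beside 6.21% of all genes called lower (10.3% in either direction). The median difference was -1.59 log2, beside -0.03 over all genes tested. At an unadjusted p under 0.05 there were 25 members, beside 25.9% of all genes. In 27 of 37 members both LSC arrays lay below both HSC arrays, beside 22.5% of all genes. These counts are for the probe sets used here. Of 35 further probe sets for 23 of the members, 28 had the same sign as the one used, with a median of -0.84 log2.

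Among the regulators of entry, Ccna2 (cyclin A2, a partner of CDK2 and CDK1) read 8.85 and 7.05 log2 in LSC, against 9.98 and 11.31 in HSC, and was lower by 2.70 ± 0.69 log2 (SE, adjusted p = 0.0388 in limma). Ccnb2 (cyclin B2) read 8.83 and 8.46 in LSC, against 10.17 and 11.19 in HSC, a log2 difference of -2.03 ± 0.45 (adjusted p = 0.0227, limma). For both cyclins each LSC array lay below each HSC array. Cdk1, the kinase that these cyclins activate, read 8.71 and 8.48 in LSC, against 10.24 and 11.31 in HSC. Its difference of -2.18 ± 0.64 log2 did not pass the test (adjusted p = 0.0609, limma), although the arrays did not overlap. Foxm1, a transcription factor of G2 and M phase genes, read 6.56 and 5.94 in LSC, against 6.84 and 6.64 in HSC. These values were close to the filter level of 6.33, which is the median over both sides. Within its array Foxm1 stood at percentile 65.3 and 57.1 in LSC and at 66.6 and 63.4 in HSC. Its other tested probe sets gave -0.34 and -1.15 log2, and neither was called.

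Of the mitotic kinases, Plk1, which drives centrosome maturation and mitotic exit, read 5.96 and 6.48 in LSC, against 7.95 and 9.51 in HSC. The difference was -2.51 ± 0.58 log2 (adjusted p = 0.0276, limma), and LSC 1 lay under the filter level, at percentile 57.9 of its array. Aurka, the centrosome and spindle kinase, read 7.17 and 7.92 in LSC, against 8.83 and 10.07 in HSC, a difference of -1.90 ± 0.49 log2 (adjusted p = 0.0397, limma). In both genes the arrays of LSC and HSC did not overlap on the probe sets used here. The other Aurka probe set gave 0.02 ± 0.24 log2 (adjusted p = 0.9764 over 23070 probe sets in limma). Nek2, a centrosome kinase, had one LSC array, 9.18, next to HSC 1 at 9.23, while LSC 2 read 7.56.

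In the spindle checkpoint 0 of 5 members passed the test in LSC on the probe sets used here. Bub1b (BUBR1, which restrains the APC/C) read 9.55 and 8.64 log2 in LSC, against 10.14 and 10.83 in HSC. Another Bub1b probe set was called lower, at -2.06 ± 0.50 log2 (SE, adjusted p = 0.0341 over 23070 probe sets in limma). Bub1 (a kinase of the checkpoint) read 8.04 and 7.86 in LSC, against 8.76 and 10.65 in HSC, and the adjusted p was 0.0896 in limma. Bub3, which also serves in interphase, read 12.21 and 12.46 in LSC, against 12.23 and 12.73 in HSC, with overlapping arrays. Ttk (MPS1, the checkpoint's upstream kinase) read 7.42 and 6.12 in LSC, against 7.78 and 9.56 in HSC.

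The chromosomal passenger complex, which corrects attachments and drives cytokinesis, had 2 of 4 members called on the probe sets used here. Birc5 (survivin) read 7.27 and 7.65 log2 in LSC, against 8.93 and 10.26 in HSC, a difference of -2.14 ± 0.49 (adjusted p = 0.0262, limma). Cdca8 (borealin) read 10.43 and 10.48 in LSC, against 11.62 and 12.09 in HSC, a difference of -1.40 ± 0.31 (adjusted p = 0.0234, limma). The kinase of the complex, Aurkb, read 9.17 and 5.65 in LSC, against 9.14 and 10.10 in HSC. The LSC arrays of Aurkb thus stood far apart, LSC 1 lay inside the HSC range and LSC 2 far under it, and its adjusted p was 0.1865 in limma. A second probe set for Aurkb gave a difference of -1.68 ± 1.00 log2. Incenp, the scaffold of the complex, was not called on its probe set of highest intensity (-0.70 ± 0.35 log2), while another was called lower, at -1.49 ± 0.37 (adjusted p = 0.0352 over 23070 probe sets in limma).

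In the centromere and kinetochore group 0 of 5 passed. Nuf2 and Ndc80 form the complex that holds microtubules: Nuf2 read 7.24 and 7.13 log2 in LSC, against 8.25 and 10.01 in HSC, and Ndc80 read 5.78 and 7.24 in LSC, against 6.49 and 8.001 in HSC. Cenpf (a coat protein of the outer kinetochore) read 8.27 and 7.04 in LSC, against 9.07 and 10.29 in HSC, on the probe set used here. Its other probe sets gave -0.23 and -0.45 log2, and neither was called. Neither Top2a, which untangles sister chromatids, nor Mki67, the coat of mitotic chromosomes, passed: Top2a read 9.99 and 10.42 in LSC, against 11.19 and 12.40 in HSC, and Mki67 read 11.93 and 10.42 in LSC, against 11.92 and 12.99 in HSC.

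Of the spindle motors, Kif11 (EG5, which pushes the poles apart) read 6.92 and 7.05 log2 in LSC, against 8.30 and 10.06 in HSC, a difference of -2.20 ± 0.54 (adjusted p = 0.0336, limma). Kif2c (MCAK, a microtubule depolymerase) read 8.01 and 7.65 in LSC, against 8.92 and 10.36 in HSC, a difference of -1.81 ± 0.44 (adjusted p = 0.0331, limma). Neither gene had overlapping arrays on the probe sets used here. The other Kif11 probe sets gave -1.45 and -0.97 log2, and those of Kif2c gave -1.73, 0.13 and 0.31. None of these passed over 23070 probe sets. The probe sets of Tpx2, an activator of Aurora A, disagreed in size: on the one used here it read 8.18 and 10.14 in LSC, against 8.76 and 10.33 in HSC, with a difference of -0.39 ± 0.66 log2 (adjusted p = 0.7578, limma). A second Tpx2 probe set gave -1.81 ± 0.53 log2 (adjusted p = 0.0645 over 23070 probe sets in limma), which also did not pass. In the midzone and cytokinesis group 0 of 5 passed. Kif20a (MKLP2) read 5.80 and 5.95 in LSC, against 6.87 and 9.25 in HSC. Both LSC values lay under the filter level, at percentiles 55.5 and 57.2 of their arrays.

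In the group of anaphase promotion, Ube2c, the ubiquitin-conjugating enzyme that starts chains for the APC/C, had the largest difference of the 37. It read 6.64 and 6.52 log2 in LSC, against 8.94 and 10.40 in HSC, a difference of -3.08 ± 0.58 log2, or 8.47-fold lower (adjusted p = 0.0115, limma). Cdc20, the activator of the APC/C, read 10.72 and 10.72 in LSC, against 11.82 and 12.54 in HSC, a difference of -1.46 ± 0.32 (adjusted p = 0.022, limma). Pttg1 (securin, the inhibitor of separase) read 11.30 and 12.44 in LSC, against 11.21 and 12.77 in HSC, and the arrays overlapped. The other Pttg1 probe sets gave 0.30 and -1.31 log2, and neither was called. Espl1 (separase) read 7.34 and 6.23 in LSC, against 8.29 and 8.73 in HSC, and its difference of -1.72 ± 0.50 had an adjusted p of 0.0605 in limma.

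**Figure D2:**
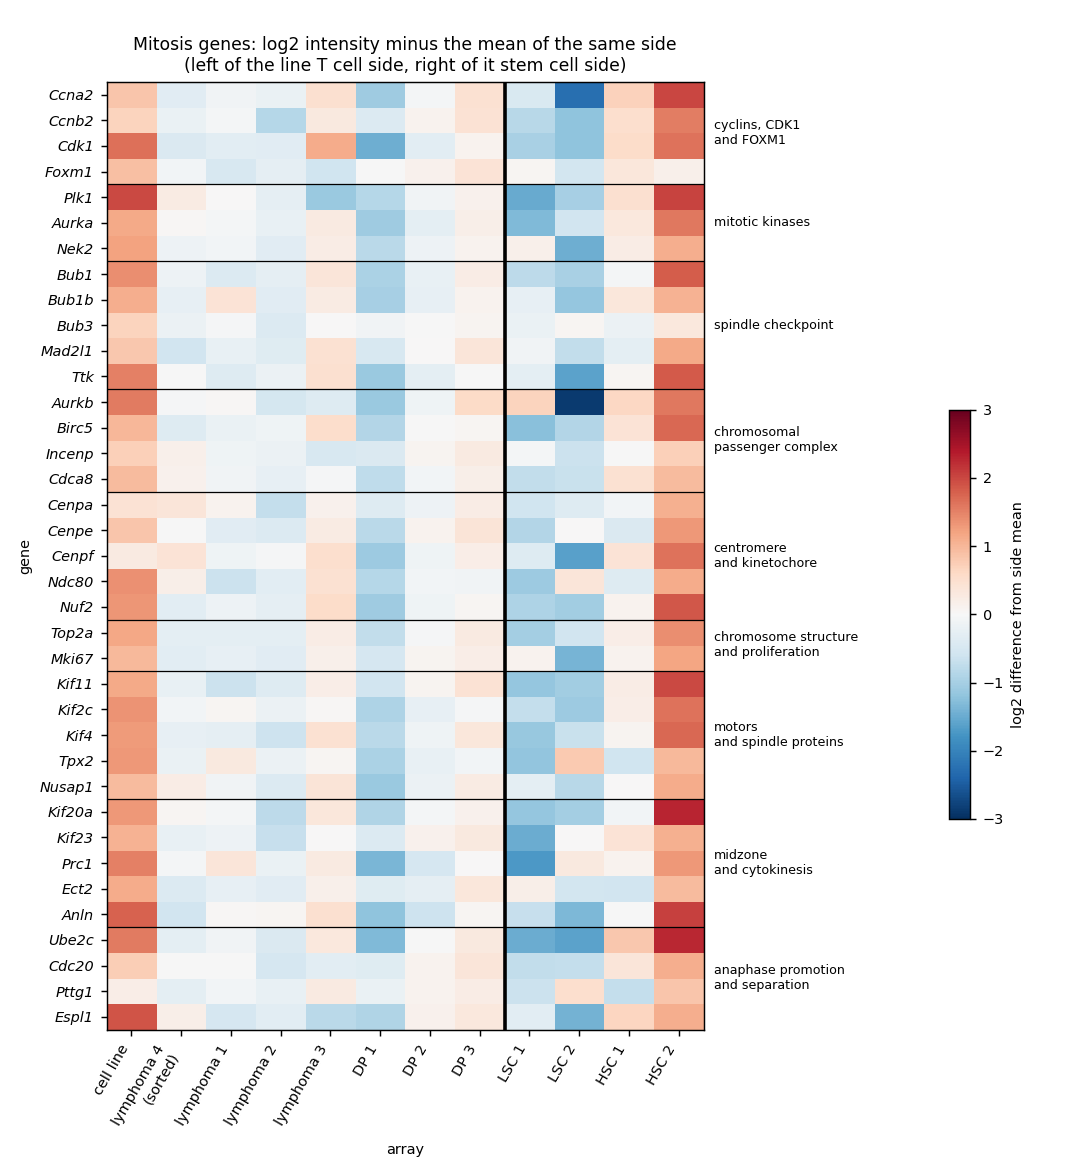
Log2 intensity of each of 37 mitosis genes in each of 12 arrays minus the mean of the same gene over the arrays of the same side (colour scale from -3 to 3), ordered by role. LSC arrays are blue in most genes, HSC 2 and the cell line are red in nearly all, and Aurkb in LSC 2 is the darkest blue.

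The calls in LSC rested on the spread borrowed from all 12 arrays. With only the 4 stem cell arrays in the fit 0 members passed (smallest adjusted p = 0.2345 in limma, 15 at an unadjusted p under 0.05), and with array weights 0 passed (smallest adjusted p = 0.4692 in limma, 0 unadjusted). Over all alternatives the smallest adjusted p of a member in limma ran from 0.0045 to 0.4692. Leaving out HSC 2 gave 0 calls, leaving out HSC 1 gave 18, leaving out LSC 1 gave 13 and leaving out LSC 2 gave 11, while the median difference stayed between -2.02 and -1.01 log2. Of 11 further probe sets for 6 of the called members, 8 had the same sign and 5 were called. Those called belonged to Ccna2, Cdc20 and Cdca8, and no further probe set of Aurka, Kif11 or Kif2c was called. With all probe sets of a gene averaged, the calls of these last 3 genes were lost. The ratio of 3′ to 5′ actin signal, a measure of how far the amplified RNA reaches, was 13.6 and 9.82 in LSC, against 5.79 and 3.91 in HSC, and the same ratio for GAPDH was 7.84 and 8.13 in LSC, against 6.68 and 3.64 in HSC. Summed granulocyte marker intensity was 12500 and 1460 in LSC, against 38200 and 43500 in HSC. Of these markers 3 of 8 were called lower, beside 6.21% of all genes. In LSC 5 of 9 DP thymocyte markers were called higher, beside 4.05% of all genes. The part of RNA quality and of other cells in the mitosis gene differences was not tested.

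The LSC arrays were each compared with the HSC mean on their own. In LSC 1, 26 of 37 members were at least 2-fold lower, beside 18.6% of all genes, with a median of -1.46 log2. In LSC 2, 27 of 37 were at least 2-fold lower, beside 18.9%, with a median of -1.84 log2. Which genes were low differed: LSC 2 minus LSC 1 ran from -3.52 log2 for Aurkb to 2.00 for Prc1 (a crosslinker of midzone microtubules), and 17 of 37 members were lower in LSC 1, beside 51.3% of all genes. Prc1 read 7.37 in LSC 1 and 9.38 in LSC 2, and Kif23 (MKLP1, a midzone motor) read 8.10 in LSC 1 and 9.61 in LSC 2. Mki67, Nek2 and Ccna2 were lower in LSC 2 than in LSC 1.

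**Figure D3:**
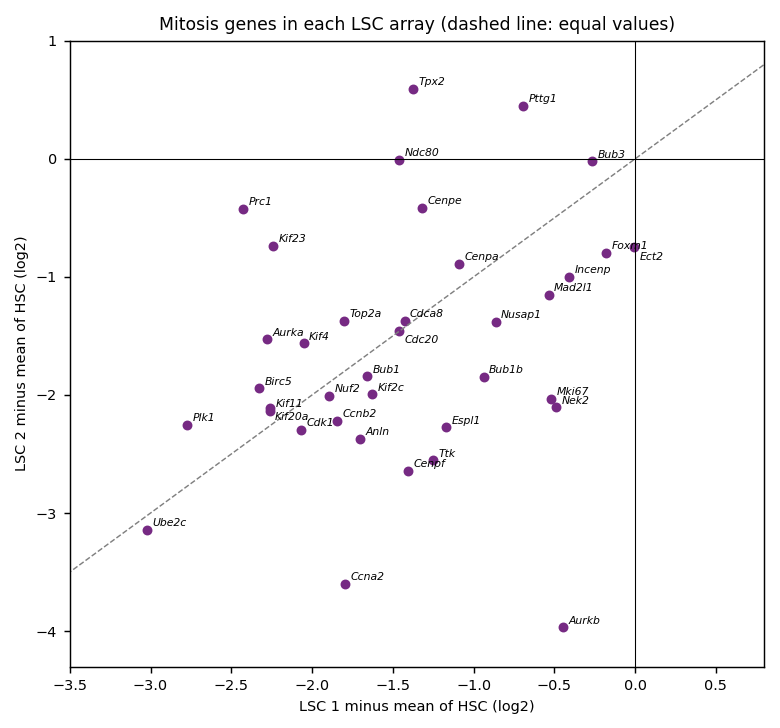
Each mitosis gene's log2 intensity in LSC 1 (horizontal) and LSC 2 (vertical) minus the mean of the HSC arrays; the dashed line marks equal values. Ube2c lies low on both axes, Aurkb falls to the foot of the plot for LSC 2 alone, and Tpx2 and Pttg1 lie above 0 on the vertical axis.

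The HSC arrays were far from alike for these genes. HSC 1 read below HSC 2 in 36 of 37 members, the exception being Foxm1, beside 60.8% of all genes. HSC 2 was at least 2-fold above HSC 1 in 27 members, beside 9.67% of all genes. The median of HSC 2 minus HSC 1 was 1.25 log2, beside 0.17 over all genes, and it reached 2.37 for Kif20a. The SD of the HSC pair had a median of 0.88 log2 over the members, beside 0.31 over all genes. The pair also differed in other ways. In HSC 1 and HSC 2 the summed macrophage marker intensity was 30800 and 4860, that of B cell markers 3830 and 614 and that of erythroid markers 4430 and 9190. The 3′ to 5′ actin ratio was 5.79 and 3.91. The part of these in the gap between the HSC arrays was not tested.

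T lymphoma was compared with its normal counterpart, DP thymocytes. No mitosis gene passed the test: 0 of 37 were called in limma, beside 6.55% of all genes, and 1 had an unadjusted p under 0.05, beside 22.6%. The median difference was 0.16 log2, beside -0.02 over all genes, and 23 of 37 members lay above 0, beside 48.4%. With array weights 1 member was called.

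Foxm1 was that member. It read 8.19, 8.40, 8.05 and 8.57 log2 in T lymphoma, against 8.64, 8.79 and 9.06 in DP thymocytes, a difference of -0.53 ± 0.21 log2 (SE, adjusted p = 0.178 in limma, and 0.0379 with array weights). Over the alternatives its adjusted p in limma ran from 0.0379 to 0.9998. It was 1 of 37 members with all T lymphoma arrays below all DP arrays, beside 19.1% of all genes, and 0 of 37 had all of them above, beside 15.3%. Prc1 had the largest positive difference: it read 11.05, 10.49, 10.96 and 10.64 in T lymphoma, against 9.32, 10.18 and 10.70 in DP thymocytes, with a difference of 0.72 ± 0.51 log2 and an adjusted p of 0.4494 in limma.

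The remaining regulators overlapped between the groups. Cdk1 read 10.33, 10.29, 11.74 and 10.21 log2 in T lymphoma, against 9.18, 10.32 and 10.73 in DP thymocytes. Plk1 read 9.34, 9.07, 8.24 and 9.58 in T lymphoma, against 8.48, 9.22 and 9.47 in DP thymocytes. Aurkb read 9.50, 8.94, 9.08 and 9.43 in T lymphoma, against 8.36, 9.33 and 10.05 in DP thymocytes.

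Bub1b read 11.90, 11.16, 11.76 and 11.25 log2 in T lymphoma, against 10.50, 11.25 and 11.60 in DP thymocytes. Top2a read 12.41, 12.41, 12.92 and 12.41 in T lymphoma, against 11.96, 12.66 and 12.98 in DP thymocytes, and the 95% interval of its difference ran from -0.76 to 0.76 log2, so that alike levels were not shown. Mki67 read 12.98, 12.88, 13.38 and 12.91 in T lymphoma, against 12.73, 13.31 and 13.43 in DP thymocytes. In all 3 genes DP 1 was the lowest of the 7 arrays.

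The DP arrays differed among themselves in these genes. DP 1 was the lowest of the 3 in 37 of 37 members, beside 39.8% of all genes, and DP 3 was the highest in 36, beside 35.5%. The median of DP 3 minus DP 1 was 1.02 log2, beside 0.01 over all genes. The SD among DP arrays had a median of 0.52 log2 over the members, beside 0.11 over all genes; among the T lymphomas it was 0.33, beside 0.32. Leaving out DP 1 turned the sign of the median difference, which was then -0.19 log2, and 0 members were called without any single array.

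Macrophage, stroma and endothelium transcripts moved with the sorting of the lymphomas: the summed intensity of 12 macrophage markers was 3660 in the sorted T lymphoma and 59400, 25800 and 33300 in the unsorted ones, against 1320 to 1490 in DP thymocytes, and that of 12 stroma and endothelium markers was 1140 in the sorted T lymphoma and 36300, 18400 and 19900 in the unsorted ones, against 1140 to 1270 in DP thymocytes. No mitosis gene passed the test for this split. For the sorted minus the unsorted T lymphomas 0 of 37 members were called, beside 0.656% of all genes, 0 had an unadjusted p under 0.05, beside 9.99%, and the median was -0.02 log2. Members ran from -0.77 (Anln, a cytokinesis scaffold) to 0.72 (Espl1), with 17 of 37 above 0, beside 54.8% of all genes. The sorted group was 1 array, so it was assumed to vary like the others.

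The ZNF112 cell line was compared with the T lymphomas. All 37 members were higher in the cell line, beside 52.6% of all genes, with a median difference of 1.30 log2, beside 0.03 over all genes. It lay above all 4 T lymphomas in 35 of 37 members, beside 28.6% of all genes; the exceptions were Cenpf and Pttg1. At least 2-fold higher were 26 of 37, beside 7.34%. With 1 array, 0 members passed the test, beside 1.16% of all genes, and 16 had an unadjusted p under 0.05, beside 12.1%.

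Plk1 had the largest difference, at 11.32 log2 in the cell line, against 9.34, 9.07, 8.24 and 9.58 in T lymphoma, a difference of 2.27 ± 0.65 log2 (SE, adjusted p = 0.1803 in limma). Espl1 read 11.11 in the cell line, against 8.72, 8.91, 8.40 and 9.40 in T lymphoma, a difference of 2.25 ± 0.56 (adjusted p = 0.1193, limma). Foxm1 read 9.57 in the cell line, against 8.19, 8.40, 8.05 and 8.57 in T lymphoma, and its adjusted p of 0.1078 in limma was the smallest of the members. The cell line stood above the highest lymphoma in each of these.

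Cdk1 read 12.29 log2 in the cell line, against 10.33, 10.29, 11.74 and 10.21 in T lymphoma. Ube2c read 11.66 in the cell line, against 10.01, 9.68, 10.44 and 9.83 in T lymphoma, and Anln read 11.45, against 9.72, 9.76, 10.19 and 9.12. By contrast, Pttg1 read 13.37 in the cell line, against 13.07, 12.93, 13.43 and 12.86 in T lymphoma, within their range. Bub3 read 14.25, against 13.56, 13.18, 13.61 and 13.43. In 35 of 35 further probe sets of the members the difference had the same sign, but they were read on the same single cell line array.

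The DP markers were split in the cell line: 4 of 9 lay above 0, with a median of -0.20 log2, and 2 were called lower, beside 0.617% of all genes. Cd4 read 6.88 log2 in it, against 9.61, 10.75, 9.88 and 11.01 in T lymphoma (difference -3.44 ± 0.59, adjusted p = 0.0331 in limma). The other called marker was Cd8b1, with a difference of -6.03 ± 1.01 log2. Cd8a read 8.51 in the cell line, against 12.67, 13.34, 12.14 and 13.58 in T lymphoma. Thy1 read 13.41 in the cell line, against 13.12, 13.03, 13.00 and 13.30, and Rag1 read 13.64, against 13.84, 13.69, 13.99 and 13.82. Macrophage marker intensity summed to 2110 in the cell line, against 3660 to 59400 in T lymphoma. Measured against the sorted T lymphoma alone the median member difference was 1.35 log2, and leaving out each lymphoma in turn kept it between 1.21 and 1.39. With 1 array, what is particular to the cell line and to that sample cannot be told apart.

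**Figure D4:**
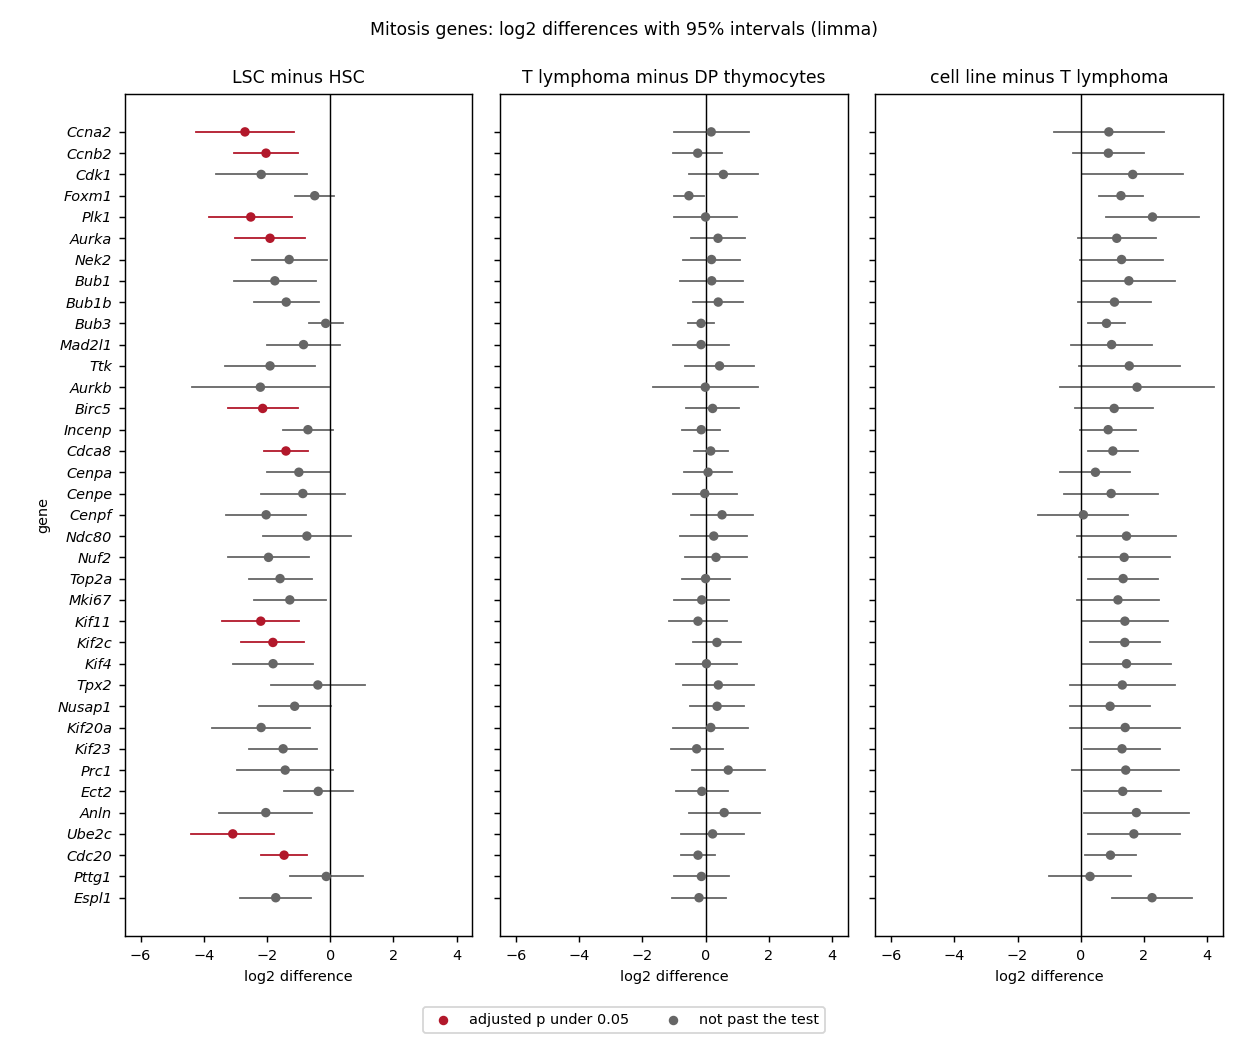
Log2 differences of the 37 mitosis genes with 95% intervals from limma, for LSC minus HSC, T lymphoma minus DP thymocytes and the cell line minus T lymphoma; red marks an adjusted p under 0.05. The 10 red genes are all lower in LSC, intervals for T lymphoma straddle 0 but for Foxm1, and all points for the cell line lie right of 0.

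The difference between the 2 disease contrasts, LSC minus HSC less T lymphoma minus DP thymocytes, was tested in the same fit. On the probe sets used here it was called in 4 of 37 members, all lower, beside 5.28% of all genes called lower and 8.88% in either direction, and the median was -1.78 log2, with 2 of 37 members above 0, beside 48.9% of all genes. These were Ube2c (-3.31 ± 0.73, adjusted p = 0.0269), Birc5 (-2.36 ± 0.62, adjusted p = 0.0458), Kif2c (-2.17 ± 0.56, adjusted p = 0.0431) and Cdca8 (-1.56 ± 0.39, adjusted p = 0.0403), by limma. Of 5 further probe sets for 2 of these members, 3 had the same sign and 1 was called, and Kif2c lost its call with its probe sets averaged. Over 23070 probe sets the difference was also called for the second probe sets of Tpx2 (-2.77 ± 0.66, adjusted p = 0.0376 in limma) and Bub1b (-2.42 ± 0.63, adjusted p = 0.0481). The count was 0 without HSC 2 or without DP 2, 1 without DP 1, T lymphoma 1 or T lymphoma 2, 2 without DP 3 or T lymphoma 3, 9 without LSC 1 and 15 without HSC 1.

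The members moved together across arrays. After the mean of each side was removed, each member's Pearson r with the mean of the other members over 12 arrays had a median of 0.89 and ran from 0.47 (Pttg1) to 0.99 (Bub1), and it was over 0.8 in 29 of 37, beside 2.86% of all genes tested against the member mean. The arrays share groups and sides, so r is a description with no test. After Pttg1, the lowest r belonged to Foxm1 (0.55) and to Tpx2 (0.63) on the probe set used here.

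Other genes of the cell cycle were read in the same way from lists of related functions. In LSC minus HSC, 7 of 18 DNA replication genes were called lower and 0 higher, beside 6.21% of all genes called lower, with a median of -1.53 log2; Mcm3 (a subunit of the replicative helicase) had a difference of -2.33 ± 0.43 (adjusted p = 0.0103, limma) and Rrm1 (a subunit of ribonucleotide reductase) of -2.09 ± 0.45 (adjusted p = 0.0195, limma). Further spindle and cytokinesis genes had 4 of 28 called lower, with Spag5 (astrin) at -2.30 ± 0.44, and further kinetochore genes 3 of 30, with Cenpm (a centromere protein) at -1.98 ± 0.33. Of the genes that control CDK1 at entry 3 of 14 were called lower, among them Cdc25a (a phosphatase that activates CDKs) at -1.80 ± 0.41, and of the condensin and cohesin genes 2 of 20, with Ncapd2 (a condensin I subunit) at -2.30 ± 0.41. APC/C genes had 2 of 15 called lower, with Fbxo5 (EMI1, an APC/C inhibitor) at -2.20 ± 0.45, and MuvB and B-MYB activators 0 of 11, with Mybl2 (B-MYB) at -1.25 ± 0.41 (adjusted p = 0.0878, limma). In every one of these lists but DNA replication the count lay within a few genes of the share over all genes, and nothing is read from it.

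In T lymphoma minus DP thymocytes 0 genes of these 7 lists were called, and their medians ran from -0.42 log2 for MuvB and B-MYB activators to 0.20 for CDK1 entry control. In the cell line minus T lymphoma 0 were called as well, while the medians were all above 0, from 0.21 for APC/C genes to 1.20 for DNA replication. DP 1 was the lowest DP array in 18 of 18 DNA replication genes and 28 of 30 further kinetochore genes, but in 8 of 15 APC/C genes, beside 39.8% of all genes. HSC 1 lay below HSC 2 in 18 of 18 DNA replication genes, 20 of 20 condensin and cohesin genes and 30 of 30 further kinetochore genes, beside 60.8% of all genes.

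**Figure D5:**
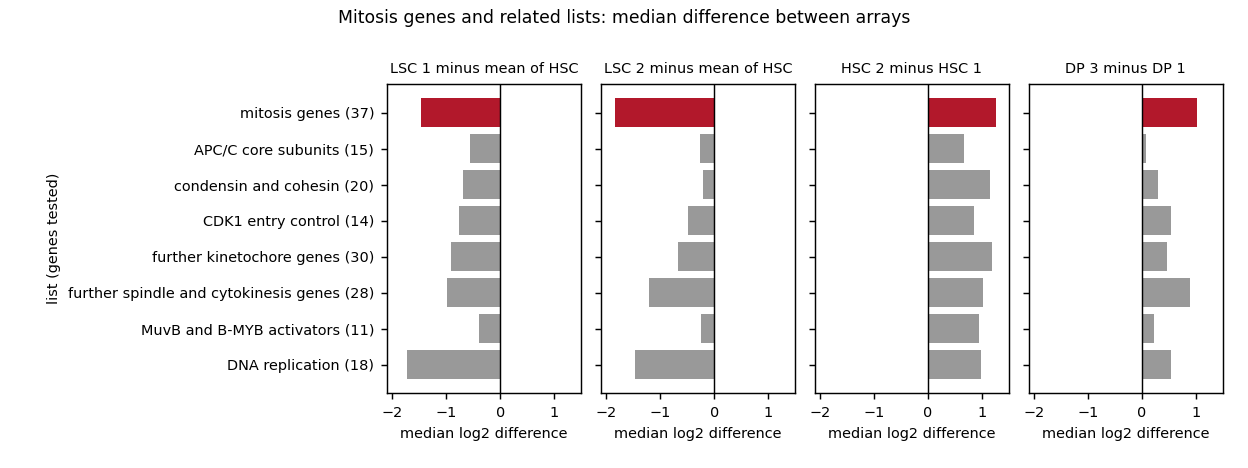
Median log2 difference of 37 mitosis genes (red) and 7 related lists (grey) for each LSC array minus the HSC mean, for HSC 2 minus HSC 1 and for DP 3 minus DP 1; numbers in brackets are genes tested. The mitosis genes reach -1.84 in LSC 2, 1.25 between the HSC arrays and 1.02 between DP 3 and DP 1, and DNA replication reaches -1.73 in LSC 1.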

How the data were processed

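RNA of 12 mouse samples in 5 groups was measured on Affymetrix Mouse430 2.0 arrays after Trizol extraction and amplification with a two-cycle labelling kit, per the labels' protocols. The authors deposited probe set intensity values on the linear scale; per the submitters' processing notes they came from RMA, and no version, genome build or background setting is given in the sources used here. RMA intensities are compressed at the low end, so small values understate fold changes. Log2 was taken again here. Of 45101 probe sets, 64 were array controls and stayed out. The platform annotation gave 34945 probe sets 1 symbol, 932 several and 9160 none here, and only the first kind was used. Each of 18193 genes kept its probe set of highest mean; 24 measured members had more than 1 probe set and 13 had 1. A gene was tested when it exceeded log2 6.33 (intensity 80.2, the median of all values) on at least 2 arrays.

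Differences were tested two-sided with limma 3.58.1 (R 4.3.3), by lmFit and eBayes with 1 mean per group fitted to all 12 arrays, and p-values were adjusted over 12797 genes by Benjamini-Hochberg. Arrays have no read depth, and their number limits the precision. The 5 contrasts were made within a side, the interaction being a difference of 2 of them. Alternatives covered the probe set choice, filter, normalization, arrays in the fit, prior, array weights, replicate block and single arrays left out. The fit was also run on simulated data with independent noise per gene. Those data lack the shared movement of the members, so nothing is read from them for the calls. Genes named in full were called members, a panel of regulators (Cdk1, Plk1, Aurkb, Bub1b, Mki67, Top2a, Foxm1), members of extreme mean level, and at most 4 called genes of each other list; the further members given were chosen after their values were seen. The members and all lists were chosen with earlier results of these data known.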

Additional observations from a re-analysis of the deposited data

Results flagged for a closer look

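Cdk1 in T lymphoma 3 read 11.74 log2, far from the other T lymphomas at 10.21 to 10.33. Top2a in T lymphoma 3 read 12.92 log2, while the others lay together at 12.41. Both were picked out by Dixon's criterion for a single distant sample, which chance meets in about 1 in 20 groups, and 37 genes were screened. Neither gap was examined further.

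A limma test of the difference between LSC minus HSC and T lymphoma minus DP thymocytes called 4 of 37 members, beside 8.88% of all genes. The count is near that share, and nothing is read from it. The members were Ube2c (-3.31 log2), Birc5 (-2.36 log2), Kif2c (-2.17 log2) and Cdca8 (-1.56 log2). With each array centred on its median only Ube2c stayed called, and with array weights all 4 calls were lost. In each of these 4 members both LSC arrays lay below both HSC arrays, as in 27 of 37 members, beside 22.5% of all genes. Their T lymphoma and DP arrays overlapped. They were picked by the same contrast on the same arrays, so these orders are no further support.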

How the results depend on the processing

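For LSC minus HSC, the difference of the contrasts and the cell line minus T lymphoma, the median difference of the mitosis genes kept its sign under all alternatives run. For T lymphoma minus DP thymocytes it ran from -0.19 to 0.37 log2, and for sorted minus unsorted lymphomas from -0.20 to 0.18, with 0 members called as reported for both. Array weights gave 1 called member for T lymphoma minus DP thymocytes, 0 for LSC minus HSC, 0 for the difference of the contrasts and 5 for the cell line. With only the compared arrays, 0 were called for LSC minus HSC; fewer arrays inform the spread there. Leaving out single arrays gave 0 to 18 calls for LSC minus HSC. For the difference of the contrasts it gave 0 to 15 calls and medians of -2.19 to -1.08 log2; no filter gave 2 calls, median centring 1 and quantile normalization 8, and the cause was not tested. The replicate block moved the cell line median to 1.67 log2 and left the LSC minus HSC median at -1.59 with 9 calls. It changed no count of called members by over 1.5 times. Replicate numbers were not treated as pairs in the main fit. Deviations of like-numbered arrays from their group means correlated at 0.033, -0.067 and -0.001 between T lymphoma and DP thymocytes. Between LSC and HSC they correlated at 0.098 and 0.098, which are equal by construction with 2 arrays per group. These values cannot show whether the samples were paired. The block could not be fitted for sorted minus unsorted lymphomas, because replicate 4 is the sorted one.

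Counts over all genes moved more. For T lymphoma minus DP thymocytes 838 became 1826 with only the compared arrays, 4681 with array weights, 383 to 399 without a DP array, 1572 without the sorted and 320 without the unsorted lymphomas. For LSC minus HSC 1313 became 0 with only the compared arrays, 103 with array weights, 774 without HSC 2, 2321 without LSC 1 and 2716 without LSC 2. For the difference of the contrasts 1136 became 311 with array weights, 446 to 464 without a DP array, 653 without T lymphoma 2, 2229 without LSC 1 and 2444 without LSC 2. For the cell line 148 became 4 with only the compared arrays, 1834 with array weights, 68 without T lymphoma 2 and 290 without T lymphoma 4. For sorted minus unsorted lymphomas 84 became 50 with probe sets averaged, 53 with no filter, 0 with only the compared arrays, 948 with array weights, 248 without T lymphoma 2 and 40 without T lymphoma 3. Arrays give no depth. In LSC 1 and LSC 2, 4 and 5 members lay under the filter level, and low RMA intensities are compressed. That level is the median over both sides. The lowest member stood at percentile 55.3 in LSC 1 and 52.8 in LSC 2, above the median of its own array.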
